A study of Mus musculus with 6 samples.

Results

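The 10 genes described here are 3 actins (Actb, Actg1 and Acta2), the actin monomer binder profilin 1 (Pfn1), serum response factor itself (Srf), and 5 genes known as its targets (Vcl, Flna, Tagln, Tpm4 and Ccn1). They were taken by symbol from 37620 gene identifiers, and the set was selected on the measured CPM of Actb and Ccn1, which were lower in knockout. Values of these 10 genes in wildtype against knockout are therefore a description, with no test. All 10 passed the filter on low counts that left 16432 genes. Whole hippocampal RNA was sequenced from C57BL/6 mice aged 13 weeks, of which 3 were wildtype and 3 carried the label miR17-92 knockout. The labels give no Cre driver, no cell type of deletion and no treatment, and each mouse came from a litter of its own. Gene reads ran from 26439693 to 57246827 per library, and all 10 markers of hippocampal neurons were tested, with a summed level of 11600 to 13330 CPM (a gene's reads scaled to a common library size, with TMM factors). The cluster's host transcript Mir17hg held 30 to 47 reads per library in both genotypes, with a log2 fold of -0.22 (SE 0.28, adjusted p = 0.813 in edgeR's quasi-likelihood test), so it does not check the labels.

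Serum response factor (SRF) is a transcription factor that binds the CArG box, a short element with an A/T core between CC and GG. It works with one of 2 families of partners. Myocardin-related factors (MRTFs) are held in the cytoplasm by free actin monomers and switch on actin and other cytoskeletal genes when monomers are used up. Ternary complex factors (Elk1, Elk3 and Elk4) are phosphorylated by MAP kinases and, with SRF, switch on immediate early genes. In neurons SRF is known for its part in activity-induced transcription and in the shape of neurites and spines, whose core is filamentous actin.

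CArG boxes are shown because they are the element through which SRF acts. RefSeq promoter windows on GRCm38.p6, 250 bases before to 50 after a start site, were at hand for 8 members, and 3 of them held a strict CArG box (CC, 6 bases of A or T, then GG, a motif that reads alike in form on both strands). Of 32851 windows in the same table, 1.63% held one. Capitals mark the CArG boxes in the stretches below, each on its gene's strand.
Srf, chr17:46556195-46556264, minus strand: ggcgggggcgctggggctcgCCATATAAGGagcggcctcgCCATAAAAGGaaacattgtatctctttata
Actg1, chr11:120348556-120348605, minus strand: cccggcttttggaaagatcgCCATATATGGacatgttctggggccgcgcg
Vcl, chr14:20929151-20929200, plus strand: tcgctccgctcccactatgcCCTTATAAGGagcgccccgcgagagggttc
Those of Srf began 82 and 62 bases before the start site, that of Actg1 90 bases before it and that of Vcl 227 bases before it. The windows of Acta2, Pfn1, Flna, Tpm4 and Ccn1 held no strict match. With 1 base other than A or T allowed in the core, Acta2 also had a match, in 4 of 8 members and 9.98% of all windows. Actb and Tagln were not in the table.

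The deleted cluster encodes microRNAs, which pair with messages mainly through bases 2 to 8, the seed. A match of 7 bases to a cluster seed was found in the longest 3' UTR (GENCODE M21, GRCm38) of 3 members, against 35% of 14542 tested genes with a 3' UTR that held at least 1 match to any of the cluster's 4 seeds. The microRNAs and their matches in Pfn1 and Vcl are given with the seed or its match in capitals.
miR-19a-3p: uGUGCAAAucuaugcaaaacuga
Pfn1, chr11:70652074-70652096, minus strand: ccctttggctTTTGCACcccctt
miR-17-5p: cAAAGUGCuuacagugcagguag
Vcl, chr14:21031873-21031895, plus strand: cttgtcatggGCACTTTgaaatg
The match of Pfn1 is shared by miR-19a-3p and miR-19b-3p, and that of Vcl by miR-17-5p and miR-20a-5p. Flna had 2 matches to miR-18a-5p, both in the 3' UTR of a transcript annotated for nonsense-mediated decay and 0 in the 3' UTRs of its protein-coding transcripts. The 3' UTRs of Actb (683 bases), Ccn1 (690 bases), Srf (754 bases), Acta2, Actg1, Tagln and Tpm4 held none.

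Among the actins, Actb was lower in every knockout library than in any wildtype library, while Acta2 and Actg1 overlapped between genotypes. Actb (ENSMUSG00000029580, chromosome 5) encodes cytoplasmic beta-actin, which is enriched in growth cones and spines. It measured 704, 757 and 680 CPM in wildtype replicates 1, 2 and 3, and 595, 551 and 556 CPM in knockout replicates 1, 2 and 3. The lowest wildtype library thus lay above the highest knockout library by 0.19 on the log2 scale. Group means were 714 ± 39 and 567 ± 24 CPM (SD, n = 3), a log2 fold of -0.33 (SE 0.05), or a ratio of 0.795. Of all tested genes 5.22% had a lower log2 fold than Actb. Its reads numbered 14511 to 33131 per library.

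Actb is widely used as a reference gene, so its level was also set against 16 other common reference genes. The geometric mean of those 16 was 51.1 to 58.0 CPM in wildtype and 55.5 to 56.2 CPM in knockout. Actb over that mean was 12.2, 13.8 and 13.3 in wildtype replicates 1, 2 and 3, and 10.7, 9.80 and 10.02 in knockout replicates 1, 2 and 3. The genotypes did not overlap on this scale either. Actb was chosen for its lower CPM in knockout, so this restates that choice and is not independent evidence. Of the 16 reference genes 12 had a positive and 4 a negative log2 fold, and 0 passed in edgeR's test (0% of all genes tested). Their median log2 fold was 0.04, against 0 over all genes tested. Among them Ywhaz, a 14-3-3 protein, had a log2 fold of 0.11 (SE 0.05) and Tbp, the TATA-binding protein, one of -0.11 (SE 0.05).

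Actg1, which encodes cytoplasmic gamma-actin, was counted at 1.38 to 2.14 CPM in wildtype and 1.52 to 1.84 CPM in knockout, from 40 to 105 reads per library. That is 0.633 CPM per kilobase of exon over the 6 libraries, against 239 CPM per kilobase for Actb. Actb held 97.8% to 98.4% of the reads assigned to the 6 actin genes. Gamma-actin is known as an abundant cytoplasmic actin with many processed pseudogenes. Of the 50-base words of Actg1 transcripts 37.4% also occurred in other annotated genes, chiefly the pseudogenes Gm12715 (33.2%) and Gm8399 (23.1%), which held at most 5 and 11 reads in any library. For Actb the share was 9.12% with words of 50 bases and 0.644% with words of 100 bases, and the read length is not given in the sources used here. At 50 bases the largest share of Actb words was with the protein-coding gene Lrrc58 (6.14%), which held 1842 to 4326 reads per library. The log2 fold of Lrrc58 was 0.06 (SE 0.06). Gapdh, another gene with many processed pseudogenes, was counted at only 23.7 to 38.4 CPM. Reads placed at several sites were 20.2% to 20.95% of each wildtype total and 21.2% to 22.6% of each knockout total. Their part in the counts of Actg1, Gapdh and Actb was not tested. The log2 fold of Actg1 was 0.05 (SE 0.22), smaller than its error. It was 0.28 without wildtype replicate 1, and -0.04, -0.06 and -0.009 without wildtype replicate 2, wildtype replicate 3 and knockout replicate 3.

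Acta2 encodes smooth muscle alpha-actin, and Tagln encodes transgelin, an actin-binding protein of the same cells. Acta2 measured 8.39, 10.2 and 6.62 CPM in wildtype replicates 1, 2 and 3, and 7.90, 8.12 and 8.08 CPM in knockout replicates 1, 2 and 3. All knockout values lay between the wildtype extremes. Tagln stood at 5.38, 6.58 and 3.92 CPM in wildtype and at 4.60, 5.24 and 5.08 CPM in knockout, with the same wildtype replicates highest and lowest. Log2 folds were -0.07 (SE 0.15) for Acta2 and -0.10 (SE 0.18) for Tagln, both within their error. Both changed sign, to 0.09, without wildtype replicate 2. Of Tagln's exonic bases 62.4% lie under an antisense gene, and the strand setting of the counting is not given, so its reads are uncertain.

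Of 12 markers of smooth muscle and pericytes 4 had a positive and 8 a negative log2 fold, with a median of -0.04 and 0 past edgeR's threshold. Their summed level was 251 to 271 CPM in wildtype and 246 to 262 CPM in knockout, and none was at 0. Groups did not overlap for 2 of the 12, both higher, and 0 were lower without overlap (8.29% and 8.34% of all genes). These 2 were Abcc9 (log2 fold 0.43, SE 0.12) and Kcnj8 (0.49, SE 0.16), with adjusted p values of 0.326 and 0.358 in edgeR's test. In a piece of tissue, fewer cells of a type and less RNA per cell cannot be told apart. Of the other actins, skeletal Acta1 stood at 3.32 ± 0.24 CPM in the wildtype and 2.95 ± 0.23 CPM in the knockout libraries (SD, n = 3). Cardiac Actc1 had 0 to 7 reads per library and enteric Actg2 0 to 4, and neither passed the filter.

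**Figure D1:**
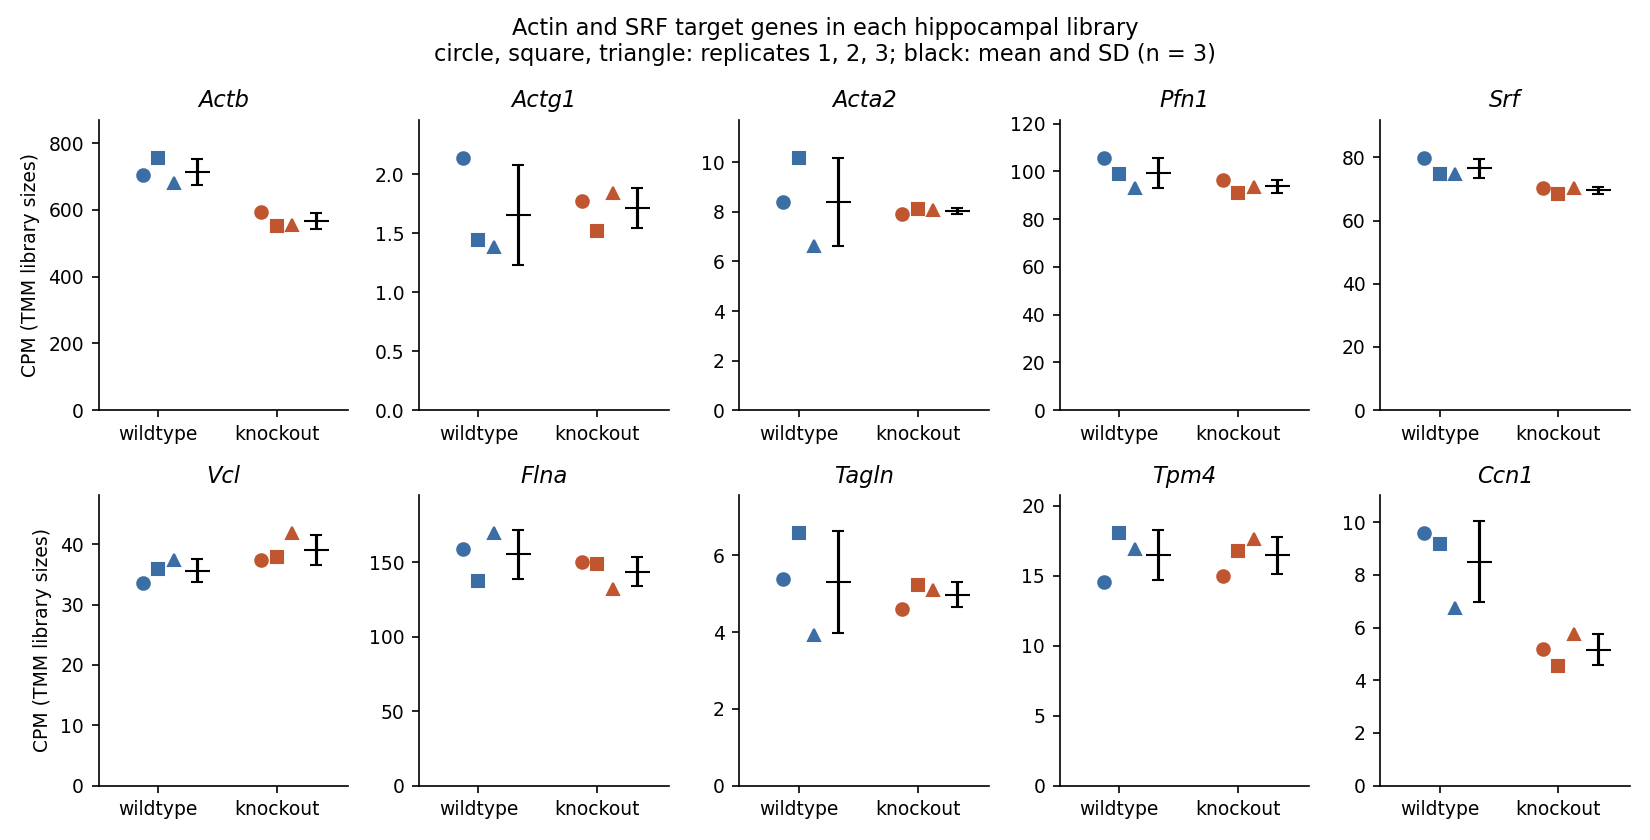
CPM (vertical axes, from 0) of the 10 genes in each library, with 3 wildtype libraries in blue, 3 knockout libraries in orange, and black marks for the mean and SD (n = 3). Actb, Srf and Ccn1 show every knockout library below every wildtype library, and Acta2 and Tagln spread more widely in wildtype than in knockout.

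Profilin 1 loads actin monomers with ATP and feeds them to growing filaments. Pfn1 measured 106, 99.1 and 93.1 CPM in wildtype replicates 1, 2 and 3, and 96.4, 91.1 and 93.6 CPM in knockout replicates 1, 2 and 3. The ranges overlapped, and the log2 fold was -0.08 (SE 0.05). Pfn1 has 59.2% GC and belongs to the 3156 tested genes of highest GC content, whose median log2 fold was also -0.08. When GC and length were entered as offsets, the log2 fold of Pfn1 was -0.004.

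Srf (ENSMUSG00000015605, chromosome 17) was lower in each knockout library than in any wildtype library. It measured 79.9, 74.7 and 74.9 CPM in wildtype replicates 1, 2 and 3, and 70.1, 68.3 and 70.4 CPM in knockout replicates 1, 2 and 3. The genotypes did not overlap, by a margin of 0.09 on the log2 scale, and the log2 fold was -0.14 (SE 0.05). Srf has 64.4% GC, in the same class of highest GC as Pfn1. With the GC and length offsets its log2 fold was 0.01, while those of Actb and Ccn1 were -0.33 and -0.70.

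Means of the partners of SRF lay close together in the genotypes. Of 12 listed cofactors and regulators 11 were tested, 6 with a positive and 5 with a negative log2 fold, with a median of 0.002 and 0 past edgeR's threshold. Mean levels in wildtype and knockout were 91.1 ± 7.1 and 94.2 ± 2.5 CPM for Mrtfa, and 336 ± 8.3 and 342 ± 14 CPM for Mrtfb (SD, n = 3). The smallest p values belonged to Elk4, a ternary complex factor (log2 fold -0.09, SE 0.06), Fhl2, a LIM protein that binds SRF (-0.10, SE 0.08), Scai, a suppressor of MRTF (0.07, SE 0.05) and Phactr4, an actin-binding phosphatase regulator (0.14, SE 0.11). Myocd, the cofactor of smooth and heart muscle, had 2 to 13 reads per library and was not tested.

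Among the target genes, Ccn1 had the largest difference of the 10. The gene (ENSMUSG00000028195, chromosome 3) encodes a secreted matricellular protein (also known as Cyr61) that binds integrins. Its level was 9.59, 9.16 and 6.74 CPM in wildtype replicates 1, 2 and 3, and 5.19, 4.55 and 5.75 CPM in knockout replicates 1, 2 and 3. No knockout library reached the lowest wildtype library, the gap being 0.23 on the log2 scale. Means were 8.50 ± 1.5 and 5.16 ± 0.60 CPM (SD, n = 3), a log2 fold of -0.71 (SE 0.15), or a ratio of 0.610. A lower log2 fold was found in 0.834% of all tested genes. The values rest on 120 to 401 reads per library, and wildtype replicate 3 was nearer to the knockouts than to the other wildtype libraries. Its relative Ccn2, another SRF target, overlapped between genotypes, with 4.69 ± 0.66 and 5.35 ± 0.60 CPM (SD, n = 3).

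Vcl was the member whose knockout libraries lay above the wildtype ones. Its product vinculin links integrin adhesions to actin filaments. It measured 33.6, 35.9 and 37.3 CPM in wildtype replicates 1, 2 and 3, and 37.4, 37.9 and 41.9 CPM in knockout replicates 1, 2 and 3. The margin between the groups was 0.002 on the log2 scale, from 1000 to 2389 reads per library. Its log2 fold was 0.14 (SE 0.06), and it was 0.27 within the 3 libraries of higher depth and 0.01 within the 3 of lower depth. The deeper set holds only knockout replicate 3 from the knockouts, and the shallower set only wildtype replicate 3 from the wildtypes. Depth thus cannot be told apart from these single mice. Of its exonic bases 25.5% overlap Ap3m1 on the other strand, whose log2 fold was 0.09 (SE 0.05).

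Flna and Tpm4 did not separate the genotypes. Filamin A crosslinks actin filaments, and Flna stood at 159, 137 and 170 CPM in the wildtype and 150, 149 and 132 CPM in the knockout libraries, a log2 fold of -0.11 (SE 0.08). That fold was -0.19 without wildtype replicate 2, -0.05 without wildtype replicate 3 and -0.06 without knockout replicate 3. Tropomyosin 4 lies along the filament, and Tpm4 stood at 14.6, 18.1 and 16.9 CPM in the wildtype and 15.0, 16.8 and 17.6 CPM in the knockout libraries. For Tpm4 the log2 fold was -0.002 (SE 0.10), from -0.09 to 0.07 with 1 library left out, and the pseudogene Gm7809 shares 11.7% of its 50-base words.

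As a set, 8 of the 10 members had a negative log2 fold, where 8213 of 16432 tested genes did, and the set's median was -0.09 against 0. Without Actb and Ccn1, on which the set was proposed, 6 of 8 were negative with a median of -0.08. Groups did not overlap for 4 members, 3 lower and 1 higher, where 16.6% of all genes did not overlap (8.34% lower and 8.29% higher). With edgeR 0 of 10 members had an adjusted p under 0.05, as for 0% of all genes, and 3 had an unadjusted p under 0.05, against 10.6% of all genes. DESeq2 called 2 members, Actb and Ccn1, both lower, against 1.26% of the 12919 genes to which it gave an adjusted p (0.720% lower and 0.542% higher). Since the contrast chose the set, nothing is read from these counts. For 4 members (Actg1, Acta2, Tagln and Tpm4) the log2 fold was smaller than its SE.

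**Figure D2:**
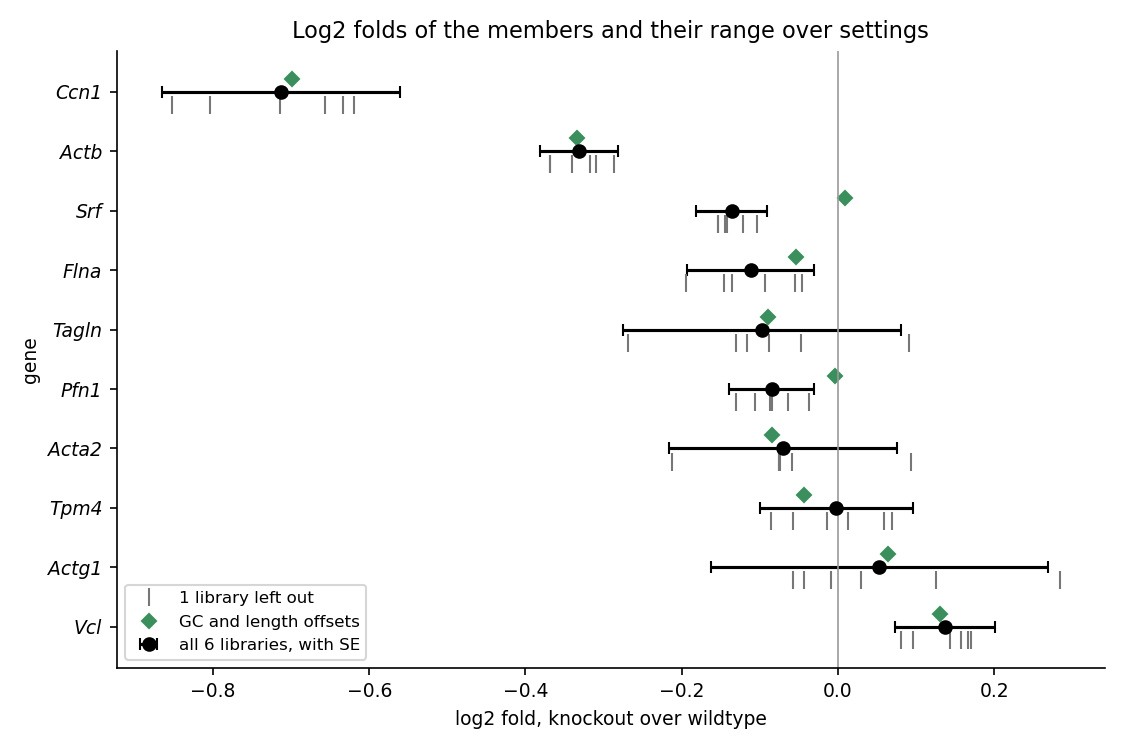
Log2 fold of knockout over wildtype (horizontal axis) for each gene (vertical axis), with black points and SE bars from the fit to all 6 libraries, grey ticks for the fits with 1 library left out, and green diamonds for the fit with GC and length offsets. Ccn1 (-0.71) and Actb (-0.33) stay below 0 throughout, while the diamonds of Srf and Pfn1 lie at 0.01 and -0.004.

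Levels per kilobase of exon ordered the members over a wide range. Over the 6 libraries Actb was first at 239 ± 32 CPM per kilobase (SD, n = 6), then Pfn1 at 40.1 ± 2.2, Srf at 25.3 ± 1.5, Flna at 15.9 ± 1.5 and Tpm4 at 7.49 ± 0.64. These neighbours did not overlap in any library. Vcl (4.56 ± 0.33), Acta2 (3.74 ± 0.52) and Ccn1 (3.38 ± 1.0 CPM per kilobase) each overlapped with the next, and Tagln followed at 2.58 ± 0.45. In wildtype alone the mean of Ccn1 (4.21) was above that of Acta2 (3.83 CPM per kilobase), and in knockout it was below it (2.56 and 3.66). Actg1 came last at 0.633 ± 0.11 CPM per kilobase, with the doubt on its count given above.

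SRF targets beyond the 10 genes were listed in 2 classes. Of 18 immediate early targets of SRF with ternary complex factors, 17 had a negative log2 fold and 1 a positive one, with a median of -0.46 against 0 over all genes. With edgeR 0 passed an adjusted p of 0.05, 12 had an unadjusted p under 0.05 and a negative fold (5.58% of all genes did), and DESeq2 called 11 lower and 0 higher (0.720% and 0.542% of the genes to which it gave an adjusted p). The list was compiled with earlier results on immediate early genes in these libraries known, so its direction is not independent evidence. Its median was -0.34 with the GC and length offsets and -0.36 without wildtype replicate 1. Centred on its mean over the 6 libraries, the list's log2 level was 0.30, 0.22 and 0 in wildtype replicates 1, 2 and 3. In knockout replicates 1, 2 and 3 that level was -0.22, -0.11 and -0.20. Egr2, a zinc finger factor induced by activity, measured 22.4, 19.4 and 16.8 CPM in wildtype replicates 1, 2 and 3 and 13.4, 11.8 and 11.1 CPM in knockout replicates 1, 2 and 3. Junb, a subunit of AP-1, had a log2 fold of -0.61 (SE 0.11), the nuclear receptor Nr4a1 one of -0.47 (SE 0.07) and Arc, a protein of active synapses, one of -0.55 (SE 0.10). Adjusted p values of these 4 genes lay between 0.118 and 0.192 in edgeR's test. Atf3, a stress-induced factor, was the 1 gene with a positive log2 fold (0.51, SE 0.23, adjusted p = 0.488 in edgeR's test). Of the 18 genes 12 did not overlap between genotypes, all of them lower (8.34% of all genes were), and the rest overlapped.

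The other class holds cytoskeletal and adhesion targets of MRTF and SRF. Of 33 listed genes 31 were tested, of which 21 had a positive and 10 a negative log2 fold, with a median of 0.03. With edgeR 0 passed, 1 was higher and 2 lower at an unadjusted p under 0.05 (5.05% and 5.58% of all genes were), and DESeq2 called 1 (1.26% of its genes). These 3 of 31 are near the share of 10.6% over all genes. Talin 1 (Tln1), which activates integrins, had a log2 fold of -0.17 (SE 0.05), caldesmon (Cald1) one of 0.17 (SE 0.07) and transgelin 2 (Tagln2) one of 0.22 (SE 0.10). The non-muscle myosin Myh9 was nearly equal at 156 ± 1.1 and 157 ± 1.1 CPM (SD, n = 3). Whether the immediate early and the cytoskeletal list differ was not tested.

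Actin turnover was listed separately, as the genes that sequester, cap, branch or sever actin. Of 25 such genes 19 had a positive and 6 a negative log2 fold, with a median of 0.04 (0.02 with the GC and length offsets), and 6 did not overlap between genotypes, all of them higher (8.29% of all genes were). The median of the common reference genes was also 0.04. With edgeR 0 passed an adjusted p of 0.05, and 5 were higher at an unadjusted p under 0.05 (5.05% of all genes were). The list's summed level was 4294 to 4374 CPM in wildtype and 4538 to 4600 CPM in knockout. Tmsb4x, whose product thymosin beta 4 sequesters actin monomers, had 770, 729 and 701 CPM in the wildtype and 791, 799 and 832 CPM in the knockout libraries, a log2 fold of 0.14 (SE 0.04). The capping protein subunit Capza2 had a log2 fold of 0.16 (SE 0.04), destrin (Dstn), which severs filaments, one of 0.10 (SE 0.04), and Actr2, a subunit of the Arp2/3 complex, one of 0.10 (SE 0.04). Adjusted p values of these 4 genes were 0.317 to 0.443 in edgeR's test.

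**Figure D3:**
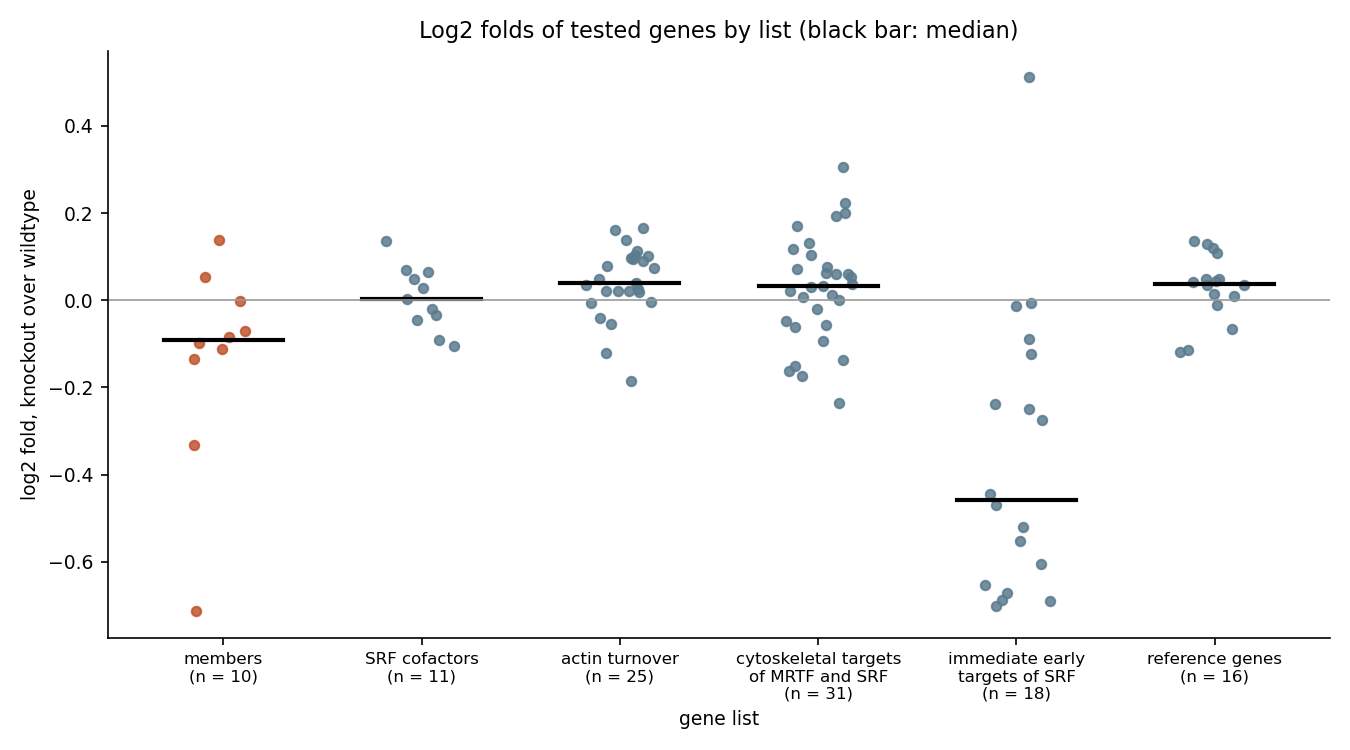
Log2 fold of knockout over wildtype (vertical axis) for each tested gene of the 10 members and of 5 lists (horizontal axis), with black bars at the list medians. The immediate early targets lie lowest (median -0.46), and the cytoskeletal targets (0.03) and actin turnover genes (0.04) lie near 0.

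Other cell types were measured beside these results. Of 12 meningeal fibroblast markers all 12 had a positive log2 fold (median 0.38), with a summed level of 286 to 326 CPM in wildtype and 395 to 491 CPM in knockout, and none at 0. Astrocyte markers were positive for 9 of 10 (5637 to 6320 and 6124 to 6642 CPM), microglial markers for 3 of 10 (369 to 390 and 355 to 375 CPM) and endothelial markers for 4 of 12 (308 to 342 and 311 to 327 CPM). Choroid plexus markers were positive for 4 of 7 tested (26.8 to 67.8 and 32.6 to 41.6 CPM). The highest of these sums was in wildtype replicate 1, where Ttr alone measured 39.0 CPM, against 1.56 to 5.73 CPM in the remaining libraries. Hippocampal neuron markers were positive for 7 of 10. Markers lower without overlap numbered 0 meningeal, 0 astrocyte, 2 microglial, 4 endothelial, 0 choroid plexus and 1 neuronal (8.34% of all genes were). Those higher without overlap numbered 5, 3, 1, 1, 0 and 2 in the same order (8.29% of all genes were). The part of these cell types in the values of Actb, Ccn1 and Srf was not tested.

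**Figure D4:**
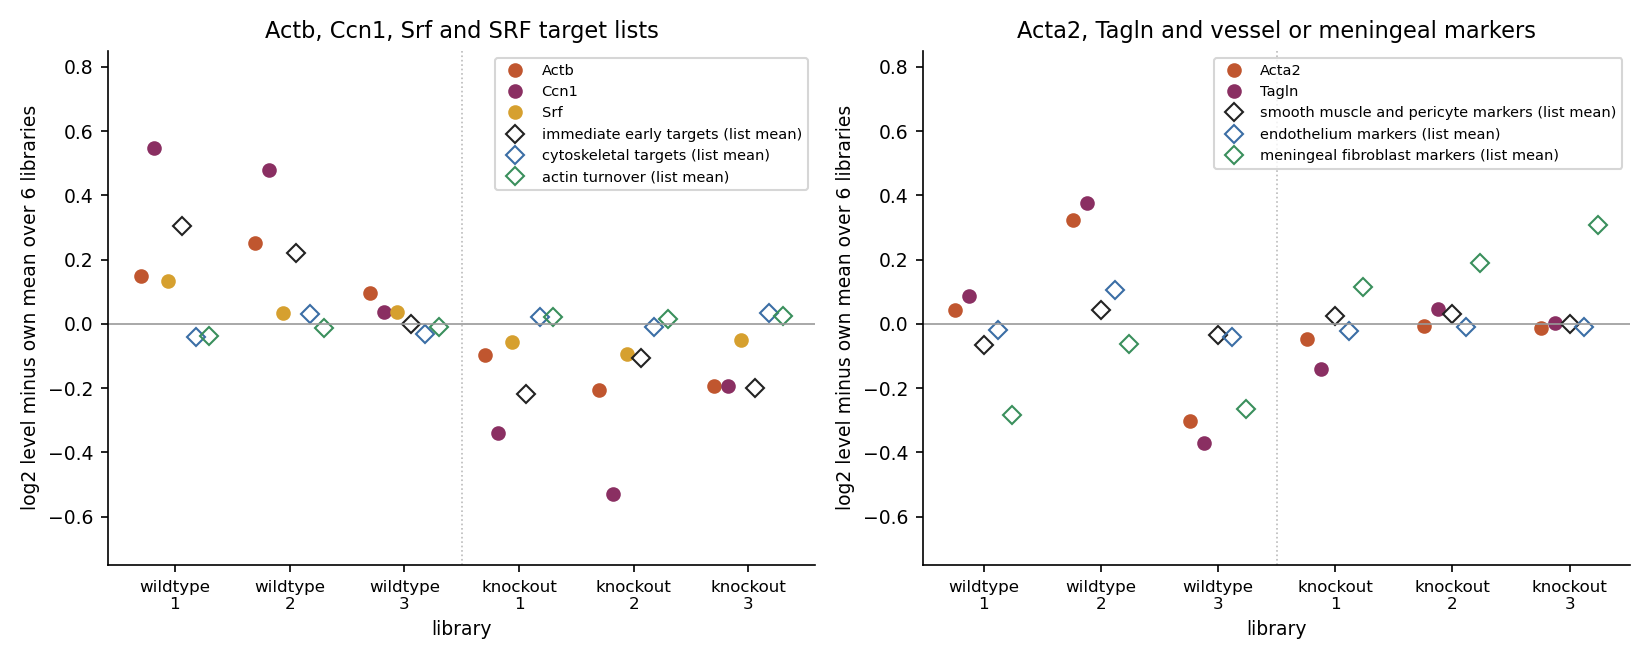
Log2 level of each gene or list mean relative to its own mean over the 6 libraries (vertical axis), by library (horizontal axis), with filled circles for genes and open diamonds for list means. On the left Actb, Ccn1 and Srf lie above 0 in wildtype and below 0 in knockout, and on the right Acta2 and Tagln are highest in wildtype replicate 2 and lowest in wildtype replicate 3, while meningeal markers lie above 0 in all knockout libraries.

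Genes with a course across the 6 libraries most like that of Actb or Ccn1 were sought among 14195 genes by the root mean square distance of log2 CPM, each gene being centred on its own mean. For Actb, whose own root mean square deviation was 0.18, these were Uvssa, a factor of transcription-coupled repair (distance 0.04), the microglial receptor Trem2 (0.05), the endosomal sorting gene Vps37b (0.05) and the augmin subunit Haus5 (0.05). For Ccn1, with a deviation of 0.40, they were Fam222a (0.10), Oacyl (0.10), the LIM domain gene Lmcd1 (0.11) and the centromere gene Cenpl (0.12). Of the members, Srf was nearest to Actb (0.12) and Actb nearest to Ccn1 (0.25), at ranks 775 and 147 of the genes compared. These distances describe 6 libraries and come from a search of many genes.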

How the data were processed

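Values deposited by the authors were raw read counts per Ensembl gene, 1 table per mouse. The submitters' processing notes name build mm9 and, without their roles, HTSeq, DESeq2, SAMtools, STAR 2.3.0e and FastQC 0.10.1. For annotation, strand setting and read length, each is not given in the sources used here. The 5 closing rows that name no gene held 38.0% to 40.3% of each total and were left out. Symbols, exon lengths, transcripts and 3' UTRs came from GENCODE M21 (32897 identifiers matched).

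Counts were fitted on genotype with edgeR 4.0.16 in R 4.3.3 (filterByExpr, TMM, quasi-likelihood test, Benjamini-Hochberg at 0.05 over all genes), after a test on simulated data. SE is the log2 fold over the root of F. Alternatives were DESeq2 1.42.0, limma-voom (3.58.1), other factors and filters, thinning, offsets for GC and length, and leaving out libraries. The depth sets are the 3 libraries with most and the 3 with fewest gene reads. The deeper set is wildtype replicates 1 and 2 with knockout replicate 3, and the shallower set is wildtype replicate 3 with knockout replicates 1 and 2. Each set thus rests on 1 library of 1 genotype. Litters differ, so replicate numbers pair nothing, and p-values measure the spread between these mice.

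The members and lists were chosen with earlier results of these data known. Named were the members, up to 4 genes of smallest p per list (1 of the cytoskeletal list is not reported here), the 4 genes nearest to Actb and to Ccn1, and genes sharing words. Mrtfa, Mrtfb, Myocd, Ccn2, Myh9, Gapdh, Atf3, Ap3m1 and Ttr were chosen after their values were seen.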

Additional observations from a re-analysis of the deposited data

Results flagged for a closer look

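The share of reads placed at several sites lies outside the gene counts, and it was higher in every knockout library (21.2% or more) than in any wildtype library (20.95% or less). Means were 20.7% ± 0.40 in wildtype and 21.8% ± 0.71 in knockout (SD, n = 3). By an exact permutation test (two-sided) p was 0.1, and no smaller p is possible with 3 mice a genotype. Any full separation of the groups gives this p, so the test adds nothing to the separation for which the share was flagged. It is set beside Actb and Actg1 because both share words with other genes.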

How the results depend on the processing

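Of 190 log2 folds of the members under other settings 181 moved by less than 1 SD between replicates. Actb kept a negative log2 fold of -0.39 to -0.25 and Ccn1 one of -0.85 to -0.47 in every setting run. Their folds of -0.25 and -0.47, within the 3 shallower libraries, had moved by more than 1 SD. Both genes were chosen for being lower in knockout, and every setting reuses these libraries, so the kept sign is not independent evidence. Srf turned to 0.01 with GC and length offsets. Without 1 library the number of members with a negative fold was 6 to 9, and within the 3 shallower libraries it was 5. Wildtype replicate 3 is the only wildtype library among those 3. Counts of genes past the threshold were 0 with edgeR, 62 without a filter, 163 with DESeq2, 15 with the robust fit, 8 after thinning, 18 at an adjusted p of 0.10, and 0 to 17 without 1 library (17 when knockout replicate 3 was left out, 16 for wildtype replicate 2, and 2 for either replicate 1). Genes of the pathway lists (marker lists not counted) past it were 7 without a filter and 12 with DESeq2, and members 1 without a filter (Actb), 2 with DESeq2 (Actb and Ccn1) and 1 at an adjusted p of 0.10 (Actb). Over all genes the shares were 1.26% with DESeq2 and 0.110% at an adjusted p of 0.10, and the share without a filter is not given. The set was chosen on Actb and Ccn1, so nothing is read from these member counts. The cause of the differences between settings was not tested. List medians without 1 library were -0.012 to 0.013 for SRF cofactors (-0.01 without a filter), 0.021 to 0.06 for actin turnover (0.023 with GC and length offsets) and 0.009 to 0.078 for cytoskeletal targets. For immediate early targets the median was -0.518 to -0.359 without 1 library and -0.339 with GC and length offsets. Words of 100 bases in place of 50 gave 0.644% for Actb, where 9.12% was found. With the replicate number as a block 0 genes passed, and Actb had a log2 fold of -0.33. Across genes, the deviations of libraries with 1 number had correlations of -0.10, -0.02 and -0.15. Actg1 rests on 40 to 105 reads per library, the fewest of the members.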
